A study of Mus musculus with 8 samples.

Results

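The cells described here were embryonic forelimb mesenchymal cells at embryonic day (E) 16.5 in which transcripts of at least 3 of 6 genes, *Sfrp4*, *Prss12*, *Dmrt2*, *Wfikkn2*, *Pcdh20* and *Qpct*, were detected together and no *Pi16* transcript was. They numbered 663 of 11109 cells in the proximal library and 209 of 8447 cells in the distal library, 872 of 19556 cells in all, and are called rule cells below. A cell was considered only if it held at least 3000 UMIs (unique molecular identifiers, each counting 1 captured transcript) and at most 10% mitochondrial UMIs. The 6 genes were chosen from these same measurements, so their own levels in rule cells are a description of the choice.

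The study traced cells that had expressed *Hic1* from about embryonic day 10. It proposes that they arise in the somite and migrate from there into the limb bud. Embryos were C57BL/6J, *Hic1*CreERT2/CreERT2; *Rosa26*LSLtdTomato/tdTomato, and their dams received 7.5 mg tamoxifen by gavage at embryonic day 10, which switches on tdTomato permanently in cells with active *Hic1*-driven Cre and in all their descendants. All cells of both groups carried these alleles and this treatment, and *Hic1*-CreERT2 marks only cells that expressed *Hic1* during the labelling window. At E16.5 the forelimb was cut into a proximal segment (distal stylopod, elbow joint and proximal zeugopod) and a distal segment (distal zeugopod and autopod). Segments were pooled, lineage-negative tdTomato+ cells were sorted, and each segment gave 1 10x Chromium 3′ v3 library. The libraries held 236408650 UMIs in 11716 barcodes (proximal) and 160375326 UMIs in 9061 barcodes (distal), with a median of 18473 and 17275 UMIs in the cells kept, and 32 barcode sequences occurred in both. With 1 library for each segment no difference has a replicate check and no p-value is given. The intervals in brackets are 95% intervals that cover counting error only, and segment and library cannot be told apart.

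Fibroblasts of connective tissue deposit collagens and matricellular proteins and modulate Wnt and TGFβ-family signals through secreted binding proteins. The 6 genes belong to this setting only in part. *Sfrp4* encodes a secreted frizzled-related protein that binds Wnt ligands, *Wfikkn2* a secreted protein that binds GDF8 and GDF11, and *Qpct* glutaminyl cyclase, which modifies the N-terminus of secreted peptides. *Prss12* encodes neurotrypsin, a secreted serine protease that cleaves agrin, *Dmrt2* a DNA-binding factor of the somite and dermomyotome, and *Pcdh20* a protocadherin of the cell surface. *Pi16* marks a fibroblast state found in many tissues.

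In genome build mm10 (GRCm38) these genes lie on different chromosomes except for the pair *Qpct* (chr17:79051906-79090378) and *Pi16* (chr17:29317680-29330593), which are far apart. *Sfrp4* spans chr13:19623104-19632994, *Prss12* chr3:123446913-123506597 and *Dmrt2* chr19:25672411-25678991. *Wfikkn2* spans chr11:94235956-94246005 and *Pcdh20* chr14:88464743-88471396. The libraries read the 3′ ends of transcripts, so the counts do not separate exons or isoforms.

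Rule cells were 5.97% (interval 5.53 to 6.42) of proximal cells and 2.47% (interval 2.15 to 2.83) of distal cells. The share rose with depth. With the cells of a library ordered by depth and cut into 4 equal sets, it went from the shallowest to the deepest as 3.64%, 5.51%, 6.62% and 8.10% in the proximal library, and 1.04%, 1.33%, 2.98% and 4.55% in the distal library. With every cell thinned to 3000 UMIs the proximal shares of the same 4 sets were 0.576%, 0.684%, 0.324% and 0.216%, and the distal ones 0%, 0%, 0.237% and 0.142%. The median rule cell held 20914 UMIs against 18357 in the other cells (proximal), and 21367 against 17163 (distal). When every cell was thinned to 3000 UMIs, 50 proximal cells (0.450%) and 8 distal cells (0.0947%) met the rule. Thus the shares count cells in which the genes were caught and are not estimates of the size of a population.

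Detection of 3 genes was the common case. Among proximal rule cells 441 had exactly 3 of the 6, and 222 had 4 or more. In the distal library the numbers were 156 and 53. The most frequent combination was *Sfrp4*, *Prss12* and *Qpct*, seen in 89 proximal and 18 distal rule cells. Next came *Prss12*, *Dmrt2* and *Qpct* in the proximal library (73 cells) and *Prss12*, *Wfikkn2* and *Qpct* in the distal library (17 cells). A further 215 proximal and 63 distal cells had at least 3 of the genes but also a *Pi16* UMI and were left out by the rule, beside 663 and 209 rule cells. Among all cells that did not meet the rule, these included, *Pi16* was detected in 775 of 10446 proximal (7.42%) and 1034 of 8238 distal cells (12.6%). The absence of *Pi16* from rule cells is thus set by the rule.

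Levels are the UMIs of a gene summed over a set of cells divided by all UMIs of that set and scaled to CPM. *Sfrp4* stood at 110 CPM in proximal rule cells and 4.51 in the other proximal cells, and at 63.5 and 2.91 CPM in the distal library. *Prss12* stood at 82.3 and 7.71 CPM (proximal) and 71.4 and 8.22 CPM (distal). *Qpct* was the gene most widely detected outside the rule cells, at 118 against 39.96 CPM (proximal) and 72.8 against 27.7 CPM (distal). The 3 sparser genes were alike in both libraries: *Dmrt2* was at 34.8 and 36.7 CPM in proximal and distal rule cells, *Wfikkn2* at 25.5 and 32.5 CPM and *Pcdh20* at 25.6 and 31.2 CPM. In cells without *Pi16* just inside the threshold (exactly 3 genes) *Sfrp4* was at 67.7 CPM proximal and 48.3 CPM distal, and just outside it (exactly 2 genes) at 14.3 and 18.9995 CPM. For *Dmrt2* the same values were 28.2 and 29.5 CPM inside, and 17.1 and 14.5 CPM outside.

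**Figure D1:**
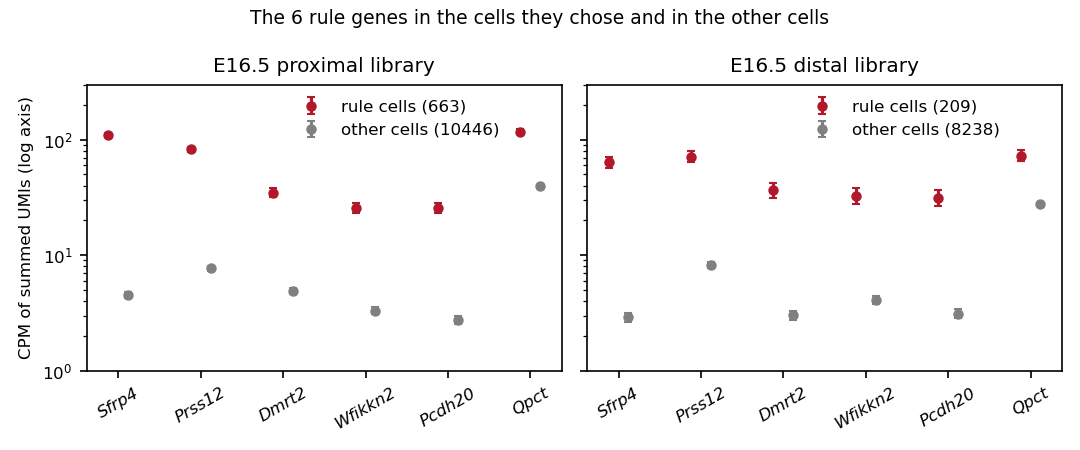
Summed level of the 6 rule genes (CPM, log axis) in rule cells (red) and the other cells (grey) of each E16.5 library; points are sums over the cells numbered in the legend and bars are 95% Poisson intervals. Every rule gene sits higher in rule cells by construction, from 118 against 39.96 CPM for *Qpct* to 110 against 4.51 CPM for *Sfrp4* in the proximal library.

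To describe how the genes occurred together, cells were chosen again by at least 3 of the other 5 genes, and the remaining gene was read in them. *Sfrp4* was then at 94.0 CPM (88.2 to 100.03) in 443 proximal cells against 7.48 CPM in all others, a ratio of 12.6, and at 40.1 CPM (33.7 to 47.4) in 140 distal cells against 4.004 CPM, a ratio of 10.0. The ratios for *Prss12* were 6.28 proximal and 4.06 distal, for *Dmrt2* 3.66 and 6.06, for *Wfikkn2* 3.84 and 4.65, and for *Pcdh20* 5.55 and 4.25. *Qpct* had the lowest ratios, 2.37 and 1.55. Every ratio lay above 1. The 6 genes were picked together as markers in these libraries, so the ratios restate that they occur together and support nothing further. At 3000 UMIs a cell, *Sfrp4* was detected in 18.3% of the proximal cells so chosen and in 1.91% of the others.

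Clustering each library without the 6 genes, *Pi16* and the *Hox* genes put 395 of 663 proximal rule cells (59.6%, 55.7 to 63.3) and 122 of 209 distal ones (58.4%, 51.4 to 65.1) into 1 cluster, which held 13.7% and 6.75% of all cells. Of the cells in that cluster 26.0% proximal and 21.4% distal met the rule. Under the other clustering settings tried, this share ran from 20.7% to 40.3% proximal and from 8.36% to 23.6% distal. The remaining rule cells fell in other clusters. In the proximal library 93 (14.03%) fell in clusters with raised mitotic markers, which held 12.6% of all cells. A cluster led by *Ly6a* and *Cd55* held 77 (11.6%), against 6.67% of all cells. In the distal library the same 2 kinds held 18 (8.61%) and 10 (4.78%), against 9.94% and 6.18% of all cells. Another 56 (26.8%) fell in further distal clusters, which held 71.1% of all cells. The 3 distal clusters with most rule cells held 77.0% of them, and 15 of the 18 distal clusters held any.

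**Figure D2:**
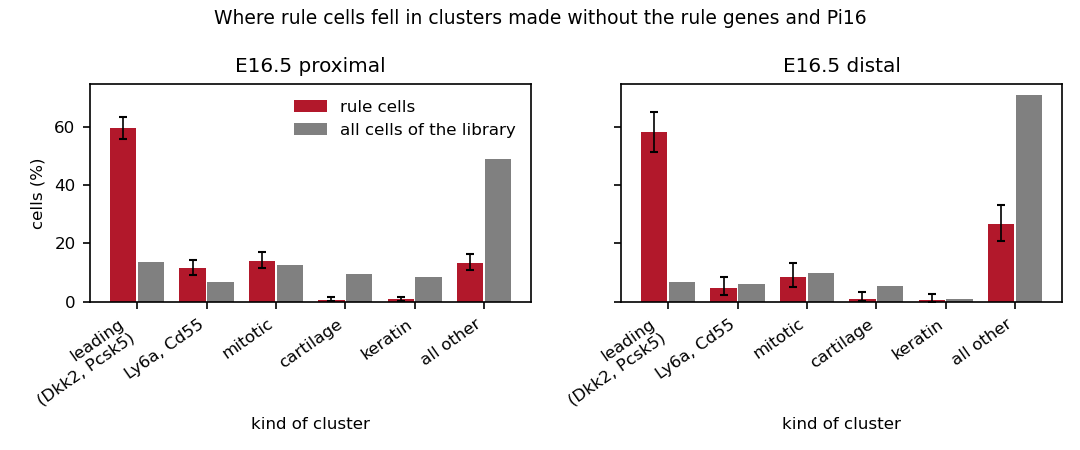
Percent of rule cells (red, with 95% binomial intervals) and of all cells of the library (grey) in each kind of cluster, for the proximal (left) and distal (right) library; clusters were made without the rule genes and *Pi16*. The leading cluster holds 59.6% and 58.4% of rule cells against 13.7% and 6.75% of all cells.

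The keratin-expressing clusters of the proximal library gave detection levels in another cell type. Whether these clusters lack the genes, and the source of the signal in them, was not tested. In them 5 of 935 cells met the rule (0.535%) although their median depth was 37836 UMIs, against 16876 in the leading cluster. At 3000 UMIs a cell, *Sfrp4* was detected in 10.3% of the leading cluster and 0.214% of the keratin clusters, *Prss12* in 9.67% and 0.214%, and *Qpct* in 26.4% and 1.07%. For *Dmrt2* the values were 6.05% and 0.107%, for *Wfikkn2* 5.79% and 0.321%, and for *Pcdh20* 3.88% and 0.214%. The proximal cluster led by *Ly6a* and *Cd55* was much closer. There *Prss12* (9.85%) and *Dmrt2* (7.96%) were detected in more cells than in the leading cluster. *Sfrp4* (5.80%), *Qpct* (19.8%), *Pcdh20* (3.64%) and *Wfikkn2* (1.48%) were detected in fewer. In the distal cluster of that kind every rule gene was detected in fewer cells than in the leading cluster. The small keratin cluster of the distal library (68 cells) gave 1.47% for *Sfrp4* and 1.47% for *Qpct*, against 6.49% and 17.4% in the leading cluster there. The distal cartilage cluster came closer to the leading cluster in *Wfikkn2* (2.26% against 4.56%) and *Prss12* (1.58% against 5.96%). It held *Sfrp4* and *Dmrt2* in 0.226% of cells each, *Pcdh20* in 0% and *Qpct* in 0.903%. The distal keratin values are 1 cell each, and the leading cluster was picked as the one with most rule cells, so these values are a description.

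The label of fibroblast was checked against markers. Thinned to 3000 UMIs, 100% of rule cells in both libraries had at least 3 of 8 fibroblast markers (*Col1a1*, *Col1a2*, *Col3a1*, *Pdgfra*, *Dcn*, *Lum*, *Dpt*, *Cd34*), against 88.9% of the other proximal and 97.7% of the other distal cells. Their summed level was 27499.8 against 17032 CPM (proximal) and 34598 against 22500.3 CPM (distal). In the sets compared below it was at 32152 and 26146 CPM (*Pi16* cells), 27582 and 27032 CPM (dermal cells) and 13587 and 18233 CPM (muscle interstitial cells). From 94.4% to 99.7% of those sets had at least 3 of the markers. The check thus places rule cells among fibroblasts and does not set them apart from other fibroblasts. *Pdgfra* itself did not differ by 2-fold, at 124 and 170 CPM in rule cells and 129 and 229 CPM in the others. In rule cells of both libraries *Ptprc* of the immune list and *Myod1*, *Myf5* and *Pax7* of the myogenic list were at 0 UMIs. Other members were detected at low levels: *Csf1r* was at 1.04 against 0.715 CPM proximal and 1.01 against 0.466 CPM distal, and *Cdh15* at 1.04 against 1.86 CPM and 0.406 against 0.518 CPM. The summed immune list (5 genes) was at 1.24 against 1.002 CPM and 1.42 against 1.72 CPM, and the summed myogenic list (5 genes) at 1.43 against 5.40 CPM and 0.609 against 1.24 CPM. The summed endothelial list (5 genes, *Sox17* at 0 in distal rule cells) was at 12.8 against 11.6 CPM and 12.4 against 10.4 CPM, with *Kdr* at 4.36 against 1.75 CPM and 7.30 against 4.31 CPM. *Hic1* was sparse, at 27.2 CPM in the rule cells of either library and 21.7 (proximal) and 27.9 CPM (distal) in the others, and the reporter tdTomato was at 1469 and 807 CPM in rule cells and 1332 and 855 CPM in the others.

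Set against all other cells of the same library, rule cells had higher levels of the secreted Wnt modulators *Dkk2*, *Sfrp1* and *Sfrp2*, of the receptor *Lgr5* and of the matrix genes *Postn*, *Aspn* and *Kera*, among others. Genes were compared where the higher group reached 50 CPM in both libraries. Of 2809 such genes, 28 (0.997%) were at least 2-fold higher in rule cells in both, and 17 (0.605%) at least 2-fold lower in both, on the ratio of CPM + 1. In the proximal library alone 60 (2.14%) were higher and 44 (1.57%) lower, and in the distal library alone 44 (1.57%) and 21 (0.748%). The median log2 ratio over all 2809 genes was 0.04 proximal and -0.04 distal. The cells were chosen in these libraries, so the ratios describe them. Of the 28 genes, 7 were also at least 2-fold higher than in the *Pi16* cells compared below, in both libraries. *Lgr5* was the only one of the genes named at the head of this paragraph among those 7.

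*Dkk2*, a secreted Dickkopf protein of the Wnt pathway (chr3:132085292-132180304), was at 215 CPM (208 to 223) in proximal rule cells and 47.3 in the others, and at 399 CPM (381 to 417) and 95.7 in the distal library. It was thus 4.47-fold and 4.14-fold higher, and a *Dkk2* UMI was present in 81.6% and 89.0% of rule cells. *Lgr5* (chr10:115450311-115587780), a receptor for R-spondins, was at 51.8 CPM (48.3 to 55.5) against 10.5, and at 62.7 CPM (55.9 to 70.1) against 14.8. This was 4.60-fold and 4.03-fold higher, with UMIs in 44.5% and 48.3% of rule cells. *Sfrp2*, another secreted frizzled-related protein, was 2.51-fold and 3.12-fold higher, at 274 and 337 CPM against 108 in the other cells of either library.

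Among the list of 14 secreted Wnt modulators, 5 were high enough to be compared, 3 of which were higher (*Dkk2*, *Sfrp2* and *Sfrp1*) and none lower. *Sfrp1* was at 125 against 55.3 CPM proximal and 116 against 41.0 CPM distal. *Wif1* (47.0 against 62.8 CPM, and 62.5 against 70.6 CPM) and the agonist *Rspo3* (81.1 against 52.3 CPM, and 71.0 against 79.4 CPM) passed neither threshold. The median log2 ratio of the 5 was 1.17 and 1.47. Of 17 Wnt receptors and targets, 4 were compared and only *Lgr5* was higher. The target *Axin2* was below the level compared, at 10.5 and 23.5 CPM in rule cells and 11.9 and 31.6 CPM in the others.

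Several of the named genes encode matrix proteins. *Postn* (periostin, matricellular) was at 2776 CPM in proximal rule cells against 925, and at 3587 CPM against 1130.1 in the distal library, 2.999-fold and 3.17-fold higher. A *Postn* UMI was found in 100% and 99.0% of rule cells. *Aspn* (asporin, a small leucine-rich proteoglycan that binds collagen) was at 1376 against 499.6 CPM and at 1464 against 561 CPM. *Kera* (keratocan, of the same family and also a member of the tenocyte list) differed between segments in level, at 133 against 55.8 CPM proximal and 528 against 107 CPM distal. *Kera* was detected in 27.1% of proximal and 60.8% of distal rule cells.

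Most members of the matrix lists passed neither threshold. Of 9 matricellular genes compared, *Postn* and *Thbs2* were higher and 7 passed neither threshold, with median log2 ratios of 0.52 and 0.40. The collagen list included fibrillar, fibril-associated and short-chain types. Of its 10 genes compared, the short-chain *Col8a2* (56.1 against 24.9 CPM, and 76.5 against 36.4 CPM) and *Col14a1* (932 against 462 CPM, and 1109 against 445 CPM) were higher, with medians of 0.64 and 0.58. Of 12 elastic fibre genes only the crosslinking enzyme *Lox* was higher in both, at 359 against 135 CPM and 473 against 217 CPM. *Eln* (tropoelastin) was at 549 against 144 CPM in the proximal library but 427 against 289.6 CPM in the distal one. Of 3 small leucine-rich proteoglycans compared *Aspn* was higher and 2 passed neither threshold, with medians of 0.60 and 0.62. None of 8 matrix proteases and inhibitors and none of 2 hyaluronan and proteoglycan genes compared passed a threshold.

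The remaining named genes were of mixed function. *Pcsk5*, a proprotein convertase that cleaves secreted precursors, was at 135 against 30.02 CPM (4.37-fold) and 132 against 35.6 CPM (3.64-fold). *Fibin*, a secreted factor named for fin bud initiation, was 2.31-fold and 4.01-fold higher, at 647 and 806 CPM. *Ptx3*, a soluble pattern recognition protein, was 2.60-fold and 2.45-fold higher, and *Serping1*, the C1 inhibitor of complement, 2.38-fold and 2.31-fold. *Apod*, a lipocalin, was 2.61-fold and 3.18-fold higher, *Plce1*, a phospholipase C, 2.38-fold and 2.34-fold, and *Galnt16*, an enzyme of O-glycosylation, 2.25-fold and 2.51-fold. *Pcdh19*, like *Pcdh20* a protocadherin, was at 50.7 against 18.9 CPM and 62.9 against 24.4 CPM, and was the only one of 4 cadherins and protocadherins compared that was higher.

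**Figure D3:**
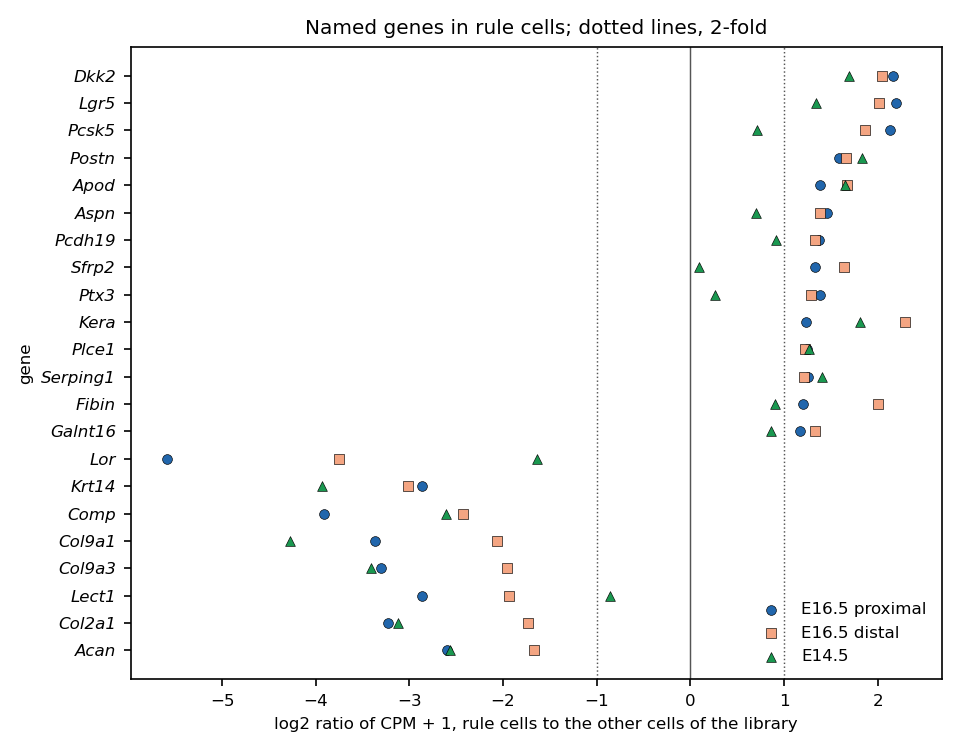
log2 ratio of CPM + 1, rule cells to the other cells of the same library, for the 14 named higher and 8 named lower genes in the proximal (circles), distal (squares) and E14.5 (triangles) libraries; dotted lines mark 2-fold. All 14 higher genes lie past 2-fold in both E16.5 libraries, and *Lor* reaches -5.58 in the proximal library.

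Binding proteins of the TGFβ family, the pathway to which *Wfikkn2* belongs, were counted next. Of 5 compared, 2 were higher: *Fst* (follistatin, which binds activins), at 307 against 147 CPM and 186 against 70.4 CPM, and *Ltbp2* (a latent TGFβ binding protein family member), at 54.0 against 10.5 CPM and 54.0 against 23.9 CPM. The ligands that *Wfikkn2* binds were low in rule cells and in the others alike: *Gdf11* was at 18.7 and 18.3 CPM against 16.3 and 21.6 CPM, and *Mstn* (GDF8) was at 0.0651 CPM (1 UMI) and 0.609 CPM (3 UMIs). *Agrn*, the substrate of neurotrypsin, was at 9.63 against 13.5 CPM proximal and 21.1 against 28.4 CPM distal, and its receptor *Lrp4* at 9.11 against 10.4 CPM and 7.30 against 10.2 CPM.

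No listed transcription factor of the dermomyotome or mesenchyme passed a threshold among 9 compared, with median log2 ratios of 0.21 and -0.33. *Meox2* was at 86.9 against 108 CPM proximal and 70.8 against 89.2 CPM distal. *Pax3*, which marks the dermomyotome in which *Dmrt2* acts, was at 1.24 CPM (19 UMIs) in proximal rule cells and at 0 UMIs in distal ones, where the limit set by 3 UMIs is 0.609 CPM and the upper end of the Poisson interval 0.748 CPM. *Twist2* (71.7 against 83.8 CPM, and 83.4 against 181 CPM) and *Tcf4* (198 against 344 CPM, and 303 against 720.0 CPM) were lower by 2-fold in the distal library alone. None of 12 genes of the insulin-like growth factor and imprinted list passed; *Igf1* was at 962 against 586 CPM and 971 against 294 CPM. Of 3 fibroblast and platelet-derived growth factor genes compared, *Fgf18* was higher, at 114 against 49.0 CPM and 85.4 against 40.9 CPM.

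The 3 genes that the study names for fascia were chosen on these samples and are not independent evidence. *Clec3b* (tetranectin) was higher, at 511 against 163 CPM proximal and 367 against 173 CPM distal. *C1qtnf3* was at 355 against 189 CPM and 565 against 121 CPM, and *Mfap5* at 826 against 379 CPM and 416 against 317 CPM. Each of these last genes passed 2-fold in 1 library only, *C1qtnf3* in the distal and *Mfap5* in the proximal.

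With a lower minimum of 10 CPM, 7738 genes could be compared, 54 higher (0.698%) and 71 lower (0.918%). This brought in sparser signalling genes. *Fgf7* was at 46.9 against 16.9 CPM and 50.3 against 23.5 CPM, *Fgf10* at 21.7 against 5.95 CPM and 27.4 against 10.4 CPM, and their receptor *Fgfr2* was lower, at 7.55 against 17.5 CPM and 6.49 against 20.3 CPM. *Wnt2* was higher (59.2 against 25.9 CPM, and 33.3 against 12.8 CPM) and *Wnt4* lower (10.9 against 50.6 CPM, and 11.4 against 39.2 CPM). Of 9 secreted Wnt modulators compared at this minimum, *Sfrp1*, *Sfrp2* and *Dkk2* were higher and *Rspo1* lower, with median log2 ratios of 0.70 and 0.46. Of 15 Wnt receptors and targets, *Lgr5* was higher and *Nkd2* and *Lef1* lower, with medians of 0.16 and -0.01. The pericyte list split. The potassium channel subunits *Kcnj8* (35.1 against 15.6 CPM, and 11.8 against 4.98 CPM) and *Abcc9* (27.3 against 12.8 CPM, and 21.1 against 6.43 CPM) were higher, while *Rgs5* was at 2.73 against 21.4 CPM and 17.4 against 24.5 CPM. Of 6 dermal fibroblast genes compared at this minimum, 5 were lower (*Col7a1*, *Rspo1*, *Irx1*, *Lef1* and *Nkd2*) and none higher.

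Cartilage genes were lower in rule cells than in the other cells as a whole. At 50 CPM, 6 of 6 chondrocyte markers compared were lower, with a median log2 ratio of -2.91 proximal and -1.70 distal. *Col2a1*, the main cartilage collagen, was at 199 CPM in proximal rule cells against 1874 in the others, and at 145 against 488 CPM in the distal library. *Comp*, a cartilage and tendon matrix protein, was at 8.98 against 149 CPM and 9.33 against 54.8 CPM. *Lor* (loricrin, of the cornified envelope) was at 25.4 against 1267 CPM and 3.04 against 53.6 CPM, and *Krt14* at 40.8 against 303 CPM and 5.68 against 52.9 CPM. Of 3 epithelial genes compared, *Krt14* was lower, and *Krt1* (125 against 1315 CPM, and 199 against 224 CPM) and *Krt10* (198 against 1648 CPM, and 222 against 269 CPM) did not pass in both libraries, with median log2 ratios of -3.05 and -0.28. The tenocyte list split: of 5 genes compared, the transcription factor *Scx* was lower (22.1 against 51.5 CPM, and 30.8 against 65.0 CPM), *Kera* was higher, and *Tnmd*, *Fmod* and *Thbs4* passed neither threshold, with medians of -1.004 and -0.59. The summed tenocyte list was at 423 against 619 CPM in the proximal library and 809.5 against 528 CPM in the distal one.

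Levels of the marker lists differed between the cells compared, and their part in the lower ratios was not tested. The summed chondrocyte list (7 genes, none at 0) was at 3415 CPM in the other proximal and 904 CPM in the other distal cells, against 389 and 264 CPM in rule cells. The summed epithelial list (6 genes, none at 0) was at 3489 and 598 CPM against 405 and 433 CPM. Without cells holding at least 2 epithelial or 3 chondrocyte markers, on either side, 5 genes were lower in place of 17 and 3 of the 17 were among them, while 11 of the 17 stayed below a ratio of 1 in both libraries. On the same cells 19 were higher in place of 28 and 16 of the 28 were among them. In rule cells the low signal came from few cells: 1 cell held 63.5% (proximal) and 64.3% (distal) of all *Krt14* UMIs, and 1 cell held 36.2% and 55.8% of the *Col2a1* UMIs. The higher genes were spread more evenly, the top cell holding from 0.605% to 5.83% of the UMIs of the 14 named.

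Mitotic genes did not set rule cells apart. At 3000 UMIs, at least 3 of 8 mitotic markers were found in 12.2% of proximal rule cells and 14.1% of the others, and in 8.13% and 9.64% in the distal library. None of the 4 mitotic genes compared passed a threshold. Cells carrying 2 transcriptomes could join markers of different types, and the doublet caller found only 1 such cell in the proximal and 0 in the distal library, so its calls were not used. Its score was in the top 10% of the library for 18.6% of proximal rule cells and 9.44% of the others, and for 15.3% and 9.50% in the distal library. With those cells left out, an alternative chosen after the data were seen, 42 genes were higher and all 28 were among them.

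The levels of the higher genes followed the number of rule genes detected. In cells without *Pi16*, *Dkk2* was at 18.5, 52.2, 102, 185 and 274 CPM in proximal cells with 0, 1, 2, 3 and 4 or more of the genes. In distal cells the series was 56.5, 93.9, 246, 379 and 455 CPM. Of the 14 named higher genes, 13 were higher at each step in the proximal library and 11 in the distal library; they were chosen for their ratio in these same cells, so this describes the choice. Between cells with none and cells with 4 or more, *Pcsk5* differed 11.9-fold and 5.45-fold, *Lgr5* 9.27-fold and 6.70-fold, and *Postn* 6.82-fold and 5.51-fold. *Kera* differed 5.06-fold in the proximal and 13.7-fold in the distal library.

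The chondrocyte factor *Sox9* ran the other way, from 170.0 CPM in proximal cells with no rule gene to 38.3 CPM in those with 4 or more, and from 119 to 45.3 CPM in the distal library. There its lowest value, 22.9 CPM, lay at exactly 3 genes. Only *Lor*, and only in the proximal library, fell at each step among the 8 named lower genes. Median depth rose over the same steps, from 17175 to 21210.5 UMIs proximal and from 15886 to 22227 UMIs distal, and its part in the order was not tested.

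**Figure D4:**
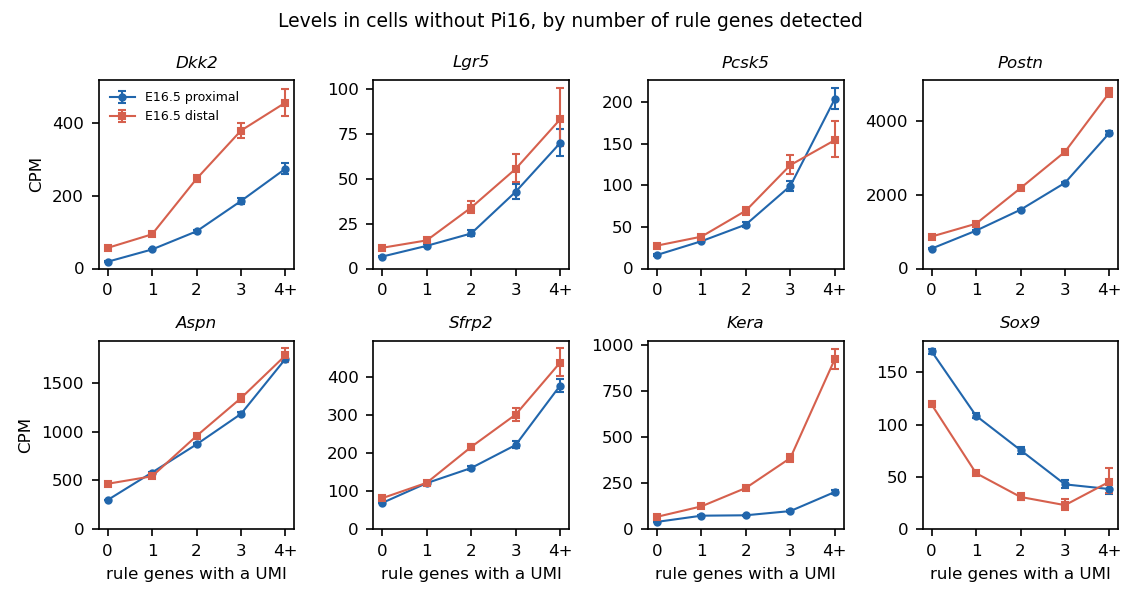
Levels (CPM, linear axes from 0) of 7 higher genes and of *Sox9* in cells without *Pi16*, by the number of rule genes with a UMI, in the proximal (blue circles) and distal (red squares) library; bars are 95% Poisson intervals. *Dkk2* goes from 18.5 to 274 CPM proximal and from 56.5 to 455 CPM distal, and *Sox9* starts at 170.0 and 119 CPM.

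Inside the leading cluster the picture was narrower. Its 395 proximal and 122 distal rule cells were set against its 1125 and 448 other cells, and of 2705 genes 0 (0.0%) were 2-fold higher in both libraries and 0 (0.0%) 2-fold lower. Of the 28 genes, which had been chosen for higher levels in these same rule cells, 24 were above a ratio of 1 in both, with median log2 ratios of 0.55 and 0.44. *Dkk2* was at 285 CPM in rule cells and 174 CPM in the other cells of the cluster (proximal), and at 566 and 514 CPM (distal). *Lgr5* kept a wider gap, at 64.2 and 28.4 CPM, and 89.5 and 48.1 CPM. In the proximal library alone some gaps passed 2-fold, such as *Ltbp2* (75.6 against 23.1 CPM), *Pcsk5* (194 against 90.9 CPM) and *Kera* (215 against 99.4 CPM). The other cells of the cluster had a lower median depth, of 16399 against 18472 UMIs proximal and 17571 against 20105 UMIs distal, and its part was not tested.

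Outside that cluster, 268 proximal and 87 distal rule cells were compared with 9321 and 7790 others. Of 2831 genes 11 (0.389%) were higher and 8 (0.283%) lower. Of the 28 genes, 21 could be compared, 20 were above a ratio of 1 in both libraries and 9 passed 2-fold, among them *Dkk2* (143 against 34.96 CPM, and 207 against 72.3 CPM) and *Postn* (2123 against 816 CPM, and 2774 against 1019.8 CPM). *Kera* was the exception in the proximal library, at 47.0 against 51.6 CPM. *Mki67*, a proliferation marker, was at 147 against 74.6 CPM proximal and 192 against 123 CPM distal among these outside cells, while inside the cluster it was at 10.1 against 11.4 CPM and 13.3 against 13.5 CPM. The outside rule cells were also deeper than the cells around them (26256.5 against 18644 UMIs proximal, 24472 against 17138 UMIs distal), and the part of depth was not tested.

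Rule cells were next compared with 3 other fibroblast-like sets, all with fewer than 3 of the 6 genes. *Pi16* cells (379 proximal, 585 distal) had a UMI of *Pi16* and of *Dpp4* or *Ly6a*. Muscle interstitial cells (518 and 36) had at least 2 of *Entpd2*, *Alx1* and *Vtn*. Dermal cells (1386 and 1477) had at least 3 of *Col7a1*, *Rspo1*, *Irx1*, *Axin2*, *Lef1* and *Nkd2*. Genes used to choose either side were left out, and the small distal muscle set limits what that comparison can show. Low cartilage signal was not particular to rule cells. The summed chondrocyte list was at 235 and 193 CPM in *Pi16* cells, against 389 and 264 CPM in rule cells. In muscle interstitial cells it was at 533 and 52.3 CPM, and in dermal cells at 661 and 546 CPM.

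Against the *Pi16* cells 24 of 2838 genes (0.846%) were higher in rule cells in both libraries and 38 (1.34%) lower. Cells with at least 3 rule genes and a *Pi16* UMI were on neither side, so the gap is partly set by the choice of cells. *Lgr5* was at 51.8 against 7.29 CPM proximal and 62.7 against 11.8 CPM distal, and *C1qtnf3* at 355 against 49.5 CPM and 565 against 178 CPM. *Megf6*, *Egfl6*, *Col8a2* and the serine protease *Htra1* were also among the 6 highest ratios. On the other side stood *Ptgs1* (cyclooxygenase, 7.81 against 62.9 CPM, and 9.54 against 84.1 CPM), *Ly6c1* and *Cd55* (complement decay-accelerating factor, 48.4 against 288 CPM, and 67.0 against 438 CPM), with *Efhd1*, *Prelp* and *Serpinb1a*. Only 7 of the 24 were also higher than in the other cells as a whole. The rest of the 28 genes higher than in the other cells, *Dkk2*, *Sfrp2* and *Postn* among them, were not 2-fold higher than in *Pi16* cells in both libraries.

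Against muscle interstitial cells 71 of 2893 genes (2.45%) were higher and 21 (0.726%) lower. *Dpt* (dermatopontin), which organises collagen fibrils, was at 329 against 31.6 CPM and 282 against 23.5 CPM, and *Ltbp2* at 54.0 against 1.31 CPM and 54.0 against 4.27 CPM. The lower genes included *Acta2*, at 51.5 against 189 CPM and 92.5 against 310 CPM, and *Rgs5*, at 2.73 against 94.4 CPM and 17.4 against 127 CPM. Both are on the pericyte list, whose sum was 402 and 591 CPM in muscle interstitial cells and 144 and 198 CPM in rule cells. At 3000 UMIs, 5.02% and 5.56% of muscle interstitial cells held at least 3 pericyte markers, against 0.603% and 0.957% of rule cells. The part of such cells in these ratios was not tested. *Ngfr* and *Sparcl1* were lower as well.

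Against dermal cells 176 of 2978 genes (5.91%) were higher and 80 (2.69%) lower. *Dkk2* was at 215 against 6.08 CPM proximal and 399 against 21.9 CPM distal, and *Clec3b* at 511 against 19.5 CPM and 367 against 15.4 CPM. *Postn*, *Tnxb* (tenascin X), *C1qtnf3* and *Mfap5* completed the 6 highest ratios. Lower were *a* (agouti, a pigment signal of the dermal papilla), at 6.57 against 147 CPM and 7.71 against 185 CPM, *Runx3*, *Irx2*, *Lix1* and *Frem1*. *Krt14* was lower too, at 40.8 against 668 CPM and 5.68 against 99.98 CPM. The summed epithelial list was at 1759.9 and 259.8 CPM in dermal cells against 405 and 433 CPM in rule cells, and its part in this ratio was not tested.

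Of 2694 genes that could be read in all 4 comparisons, 7 (0.26%) were at least 2-fold higher in rule cells in each of them and in both libraries. They were *Lgr5*, *Fibin*, *Pcsk5*, *Col8a2*, *Tcea3*, *Piezo2* and *Plce1*. Against the other cells of the leading cluster, which is not among these comparisons, none of them was 2-fold higher in both libraries. The smallest of their 8 log2 ratios was 2.01 for *Lgr5* and between 1.01 and 1.21 for the others. *Piezo2*, a mechanosensitive ion channel, was at 82.1 CPM in proximal rule cells against 40.2 CPM in the others and at 204 against 78.5 CPM in the distal library. *Tcea3*, a transcription elongation factor, was at 55.1 against 21.4 CPM and 72.4 against 35.3 CPM.

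The same rule was applied to the earlier sorted library of E14.5, which was not used to choose the 28 and 17 genes but whose cells are of the same lineage and were chosen by the same 6 genes. It held 202 rule cells of 8381 (2.41%, 2.09 to 2.76), or 7 (0.0835%) at 3000 UMIs. Of the 28 higher genes, 21 were high enough to be compared at E14.5, all 21 were above a ratio of 1 (1073 of 2568 genes were) and 11 were at least 2-fold higher, where 2.02% of all genes were. *Dkk2* was at 474 against 146 CPM, *Postn* at 1236 against 345 CPM and *Kera* at 428 against 121 CPM. *Lgr5*, at 39.99 against 15.2 CPM, was below the minimum of 50 CPM and is not among the 21. *Sfrp2* did not differ there by 2-fold, at 276 against 259 CPM. Of the 17 lower genes, 10 could be compared, all 10 were below 1 (1495 of all 2568 genes were) and 7 at least 2-fold lower, where 0.545% were. The ratio of each rule gene in E14.5 cells chosen by the other 5 ran from 2.51 for *Wfikkn2* to 5.39 for *Prss12*, and that of *Pcdh20* (2.54) rests on 10 UMIs.

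Before E14.5 such cells were all but undetected. The rule was met by 0 of 3165 E11.5 cells (a limit of 0.0948%, set at 3 counts over the cells of the library and lower than the upper end of the exact interval, 0.116%), by 2 of 4714 at E12.5 and by 3 of 6123 at E13.5. In the 2 libraries of whole E11.5 limb it was met by 0 of 5464 and 0 of 5682 cells, with limits of 0.0549% and 0.0528%. These libraries used the earlier v2 kit and had medians of 6785.5 to 8992 UMIs in their other cells, so age and kit cannot be told apart. With every cell thinned to 3000 UMIs the rule was met by 0 cells at E11.5, at E12.5 and in both whole limb libraries and by 1 of 6123 at E13.5 (0.0163%, 0.000413 to 0.0910), against 7 of 8381 at E14.5 (0.0336 to 0.172) and 50 of 11109 in the E16.5 proximal library (0.334 to 0.593). In the E16.5 distal library it was met by 8 of 8447 (0.0409 to 0.187). At equal depth the proximal share thus lay above the intervals of all earlier libraries. The distal interval overlapped those of all earlier libraries, including E11.5 (0 to 0.116), E12.5 (0 to 0.0782) and whole limb (0 to 0.0675 and 0 to 0.0649). The E14.5 interval likewise overlapped that of every earlier library.

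Last, proximal and distal rule cells were compared with each other. Of 3306 genes 97 (2.93%) were at least 2-fold higher and 40 (1.21%) at least 2-fold lower in distal rule cells, and of these 137 genes 132 lay on the same side in the other cells of the 2 libraries, 87 of them by 2-fold or more. In the other cells 134 of the same genes (4.05%) were higher and 63 (1.91%) lower on the distal side. *Hoxa11*, a zeugopod gene, went from 10.9 to 61.3 CPM in rule cells and from 8.87 to 44.0 CPM in the others. *Nefm*, a neurofilament subunit, went from 31.2 to 157 CPM (10.3 to 64.4 in the others) and the immediate early gene *Egr1* from 46.5 to 203 CPM (51.5 to 160 in the others). On the proximal side stood *Tmeff2*, at 171 CPM against 44.2 distal (65.7 and 17.4 in the others), *Srpx2* and *Ntm*, a neural adhesion molecule.

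Several of the widest segment ratios concern genes with near-identical copies or ribosomal sequence. *Rpl29* was at 8.66 CPM proximal and 411 CPM distal, *Gm3550* at 74.3 and 2.43 CPM, and *Gm42418* at 1239 and 5157 CPM, and the other cells had nearly the same values (9.03 and 390 CPM for *Rpl29*). The deposited matrices name Cell Ranger 3.0.2 for the proximal and 6.0.1 for the distal library, reads from such copies can be assigned differently, and these ratios are uncertain. *Spp1* (osteopontin) was at 70.5 CPM proximal and 0.812 CPM distal, but 1 proximal cell held 1073 of its 1083 UMIs (99.1%), and without it the level was 0.652 CPM. A single proximal rule cell likewise held 702 of 704 UMIs of the bone gene *Ibsp*. *Fabp4*, an adipocyte and endothelial lipid carrier, was at 53.8 against 1.01 CPM, from 92 of 663 proximal and 2 of 209 distal rule cells.

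Levels of several *Hox* genes differed between the segments, which were fixed by dissection, in rule cells and in the others. *Hoxd11* was at 17.4 CPM in proximal and 65.9 CPM in distal rule cells, and 25.6 and 80.8 CPM in the others. *Hoxd13*, which is restricted to the autopod, was at 1.497 and 28.8 CPM in rule cells, and at 1.71 and 79.4 CPM in the others. *Hoxa13* was at 0.0651 CPM (1 UMI) and 10.6 CPM in rule cells, and 0.456 and 31.9 CPM in the others. Distal rule cells thus lay more than 2-fold below the other distal cells in both autopod genes, while *Hoxa11*, at 61.3 against 44.0 CPM, did not pass 2-fold.

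Genes of the proximal limb ran from high to low between the segments. *Meis2* was at 36.6 and 10.3 CPM in proximal and distal rule cells, close to 33.9 and 8.82 CPM in the others. *Hoxb2* was at 16.1 and 1.83 CPM and *Hoxc6* at 8.33 and 1.22 CPM in rule cells. *Shox2*, a regulator of proximal limb growth, was high in rule cells of both segments, at 298 and 368 CPM against 152 and 107 CPM in the others, a ratio past 2-fold in the distal library alone.

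**Figure D5:**
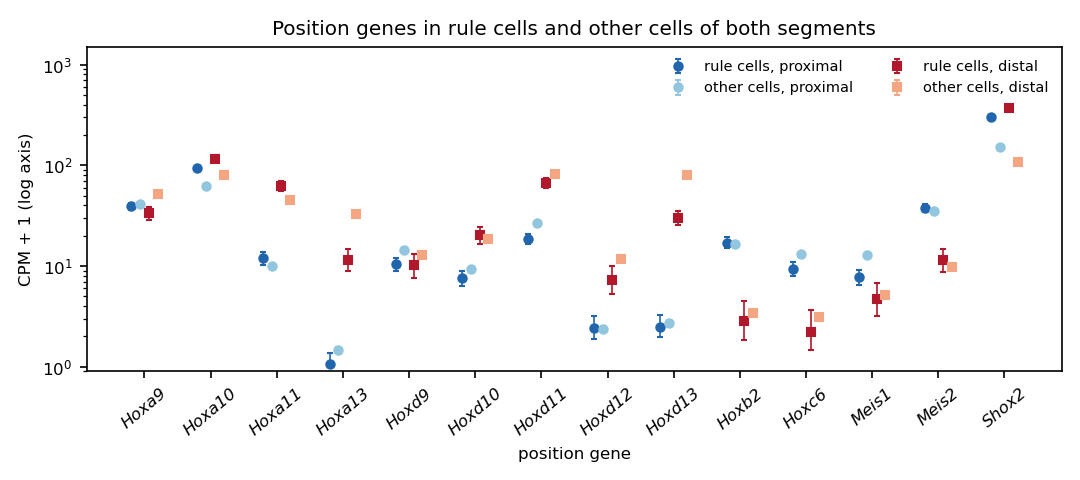
Level (CPM + 1, log axis) of *Hox* and other position genes in rule cells (dark) and other cells (light) of the proximal (blue circles) and distal (red or orange squares) library, with 95% Poisson intervals. *Hoxd13* reaches 28.8 CPM in distal rule cells and 79.4 CPM in the other distal cells, and *Shox2* lies above the other cells in both segments.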

How the data were processed

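Gene by cell matrices of UMI counts were deposited by the authors, who made them with Cell Ranger (versions 3.0.2 and 6.0.1 in the matrix headers of the libraries used) on a modified mm10 genome, unnormalised. The authors filtered cells with under 3000 UMIs or high mitochondrial content and removed keratin clusters from their own aggregate; the deposited matrices still held both. Here cells needed 3000 UMIs and at most 10% mitochondrial UMIs. Doublets were not removed. The E16.5 libraries were the proximal and the distal one, 1 for each segment, and E14.5 and the earlier libraries served for comparison. The members and gene lists were chosen with earlier results of these data known.

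UMIs were summed over cells, scaled to CPM and compared as the ratio of CPM + 1. A gene was compared at 50 CPM or more in the higher group of both libraries and called at 2-fold in both. Cells are not replicates, so no test was run. Intervals were exact Poisson (levels) or Clopper-Pearson (shares) at 95%, and cover counting error only. The 14 highest and 8 lowest ratios, ranked by the library nearer to 1, the 6 highest and lowest of each comparison set, the 8 highest and lowest between segments, and all listed genes were named; *Tcea3*, *Piezo2* and *Ibsp*, and *Sox9* in the plot, were named after their values were seen. Rule genes, *Pi16*, genes that chose comparison cells, haemoglobin, mitochondrial, sex-linked *Xist* and Y genes and transgenes were left out of the ranking. *Cebpd* and *Ltbp4* were not analysed here. Coordinates are those of GENCODE vM21, with 27645 of 28001 features matched by identifier.

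Clusters came from scanpy 1.11.5 (Leiden 0.10.2, resolution 1). Thinning drew 3000 UMIs a cell. TMM factors came from edgeR 4.0.16 in R 4.3.3. The calling script was tested on simulated data. Other settings tried were the number of rule genes, the *Pi16* condition, the depth and mitochondrial limits, thinning, minimum CPM, pseudocount, scaling, the cells compared and the clustering.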

Additional observations from a re-analysis of the deposited data

Results flagged for a closer look

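Every gene below differed in direction between the segments, which was not tested, and was below 50 CPM in the higher group of at least 1 library. *Spp1* had a log2 ratio of rule cells to other cells of 3.58 in the proximal library, where 1 rule cell held 99.1% of its UMIs, and of -2.20 in the distal library, where it had 4 UMIs in rule cells. *Epyc* (epiphycan, a small leucine-rich proteoglycan of cartilage) had a log2 ratio of -2.30 in the proximal library, at 23.6 against 120 CPM, and of 1.60 in the distal library, at 31.7 against 9.78 CPM. Its UMIs came from 73 proximal and 41 distal rule cells, the top cell holding 21.0% and 9.62%. Of the 2809 genes at 50 CPM or more, 0 were 2-fold apart in opposite directions in the segments.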

How the results depend on the processing

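All 28 higher genes stayed above a ratio of 1 in both libraries under the 9 settings that could move a ratio across 1 (a lower or no minimum CPM and another pseudocount cannot), but calls in both directions depended on the cells compared. The 28 genes were chosen for being at least 2-fold higher in largely the same cells, so staying above 1 was close to fixed and describes the choice. Higher calls numbered 19 (16 of the 28) without marker-bearing cells, 20 (18 of the 28) without the keratin and cartilage clusters and 20 (20 of the 28) within the depth range of rule cells. Calls also moved with the same cells. Of the 28 higher and 17 lower genes, TMM scaling kept 25 and 15, and per-cell means 24 and 13. Thinning to 3000 UMIs kept 22 and 14, and a pseudocount of 5 CPM 23 and 16. Of 116 recomputed counts and shares, 67 stayed within their limit. Of the recomputed values of single genes and lists 866 did, 250 moved and 4 reversed; among the log2 ratios to the other cells 126 moved and 138 did not. The proximal share of rule cells was 16.6% with 2 genes required, 2.00% with 4, 7.90% without the *Pi16* condition, 0.450% at 3000 UMIs, 6.62% without cells with epithelial or cartilage markers, and, chosen after seeing the data, 5.40% without the top 10% by doublet score and 7.17% without the keratin and cartilage clusters. In the distal library it was 9.08%, 0.627%, 3.22% and 0.0947% under the first 4 of these. At 3000 UMIs it was 0% at E12.5 and 0.0835% at E14.5. At 10 CPM the counts higher and lower were 54 and 71 against other cells, 72 and 80 against *Pi16* cells, 163 and 90 against muscle interstitial cells, 389 and 255 against dermal cells, and 295 and 154 between segments; with no minimum they were 75 and 154 against other cells. With 4 genes required, 60 were higher than in other cells (all 28 among them), 24 lower (6 of the 17, with 15 of the 17 below 1), 40 higher than in *Pi16* cells, 37 lower than in muscle interstitial cells, and 147 and 77 apart between segments. Thinning gave 160 and 71 between segments. Without cells of 1 or 2 rule genes 58 were higher and 27 lower. The 17 lower genes became 5 without marker-bearing cells, 6 without the keratin and cartilage clusters (15 of the 17 still below 1) and 29 without the top 10% by score, which also gave 128 lower than in dermal cells. With 2 of the other 5 genes required, the proximal ratios were 8.93 for *Sfrp4*, 4.82 for *Prss12*, 2.84 for *Dmrt2*, 2.997 for *Wfikkn2* and 3.40 for *Pcdh20*, and the distal ones 6.71 for *Sfrp4*, 4.07 for *Dmrt2* and 2.85 for *Wfikkn2*. The leading cluster held 71.5% proximal and 65.6% distal at resolution 0.5, and 38.9% proximal at resolution 2. The distal median of the epithelial list turned from -0.28 to 0.16 with per-cell means and 2.10 within the depth range of rule cells, and the segment log2 ratio of *Spp1* from -5.30 to 2.03 with 4 genes required and 0.32 without the top 10% by score. The cause of these shifts was not tested beyond what each setting leaves out. Removal of called doublets was not run, since the caller marked almost no cell. No paired analysis was possible because each segment had 1 library, and no library could be left out for the same reason. Depth limits all 6 rule genes, detected at 3000 UMIs in 7.09% (*Pcdh20*) to 31.1% (*Qpct*) of proximal rule cells.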

Other observations

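Some genes passed 2-fold in rule cells in 1 library or lay just under it in both, and none of these is a call. *Dcn* (decorin, a collagen-binding proteoglycan) was at 3806 against 1991 CPM proximal and 5334 against 2347 CPM distal. *Cd34*, a surface sialomucin of many fibroblasts, was at 270.0 against 139 CPM and 272 against 150.1 CPM. *Wnt5a*, a non-canonical Wnt ligand, was at 108 against 52.6 CPM and 138 against 96.4 CPM. At the minimum of 10 CPM the short-chain collagen *Col8a1* was higher, at 43.9 against 19.3 CPM and 101 against 43.4 CPM. The retinoic acid synthesis enzyme *Aldh1a3* (11.1 against 24.5 CPM, and 4.87 against 16.1 CPM) and the ligand *Bmp5* (2.93 against 12.04 CPM, and 4.46 against 14.8 CPM) were lower.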
